A study of Mus musculus with 32 samples.

Results

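The genes described here are 31 genes of the oligodendrocyte lineage, the glial lineage that makes myelin, measured in cultures of mouse primary hippocampal neurons. They were taken by symbol from the total RNA count table, where all 31 were found among 51267 features, and were kept in 3 lists: 9 progenitor and lineage factor genes, 5 genes of committed and premyelinating cells, and 17 genes of myelin and mature oligodendrocytes. The cultures came from P0 pups and had spent 16 days in vitro when they were exposed for 30 minutes to 1 of 3 agents. Forskolin (FSK, 50 µM) activates adenylyl cyclase and so raises cAMP. DHPG (30 µM) stimulates metabotropic glutamate receptors of group I. DMSO, the solvent, was the control. Total RNA was sequenced from 4 DMSO, 6 DHPG and 6 FSK samples, and miRNA from the same numbers. The labels name no genotype or strain and do not say whether the samples of a group came from separate cultures or animals, so the p-values below measure the spread between these samples, which may be technical.

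Oligodendrocytes arise from progenitors that divide and respond to platelet-derived growth factor through the receptor Pdgfra. Progenitors that leave the cycle pass through a committed stage marked by Gpr17, then a premyelinating stage marked by Bcas1 and Enpp6, and finally switch on the proteins and lipid enzymes of the myelin sheath under the transcription factors Sox10 and Myrf. In a culture of dissociated neurons these cells are a minor glial population, and in bulk RNA fewer cells of a type and less RNA per cell cannot be told apart.

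Total counts ran from 20677117 to 24892959 in 9 libraries (DMSO 1, DHPG 1 to 5, FSK 1 to 3) and from 38409918 to 59958600 in the other 7, so the depth differs between the groups: 3 of 4 DMSO, 1 of 6 DHPG and 3 of 6 FSK libraries are deep. Mitochondrial rRNA made up 1.47 to 2.92% of counts in the shallow set and 10.8 to 27.7% in the deep set. FSK 4 and FSK 5 stood apart from the other 14 libraries in several cell type marker lists. The summed level of 14 microglia markers was 262 and 436 CPM (counts scaled to a common library total by TMM) in FSK 4 and FSK 5, against 25.3 to 62.0 in the other 14 libraries. The sum of 10 excitatory neuron markers was 866 and 924 CPM there, against 1069 to 1713 elsewhere, and that of 10 inhibitory neuron markers 353 and 292 CPM, against 402 to 663. Results that rest on FSK 4 and FSK 5 are therefore also given without them. The labelled neurons were present in every library by these markers. RNA of the oligodendrocyte lineage was also found in every library, with Olig2 between 46.7 and 84.6 CPM, Sox10 between 4.83 and 20.5 and Pdgfra between 59.7 and 364. Genes of later stages came near 0 in some libraries, with Myrf at 0 CPM in DHPG 3.

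The 3 lists did not move as one. Summed over its 9 genes, the progenitor list stayed within 458 to 832 CPM in all 16 libraries. The 5 premyelinating genes summed to 13.3 CPM in DMSO 1, 16.8 in DHPG 2 and 9.86 in DHPG 3, and to between 48.8 and 239 CPM in the other 13 libraries. The 17 myelin genes summed to 633 CPM in FSK 4 and 808 in FSK 5, and to between 71.7 and 246 CPM in the other 14. The low premyelinating sums were those of 1 DMSO and 2 DHPG libraries, and the high myelin sums those of 2 FSK libraries.

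**Figure D1:**
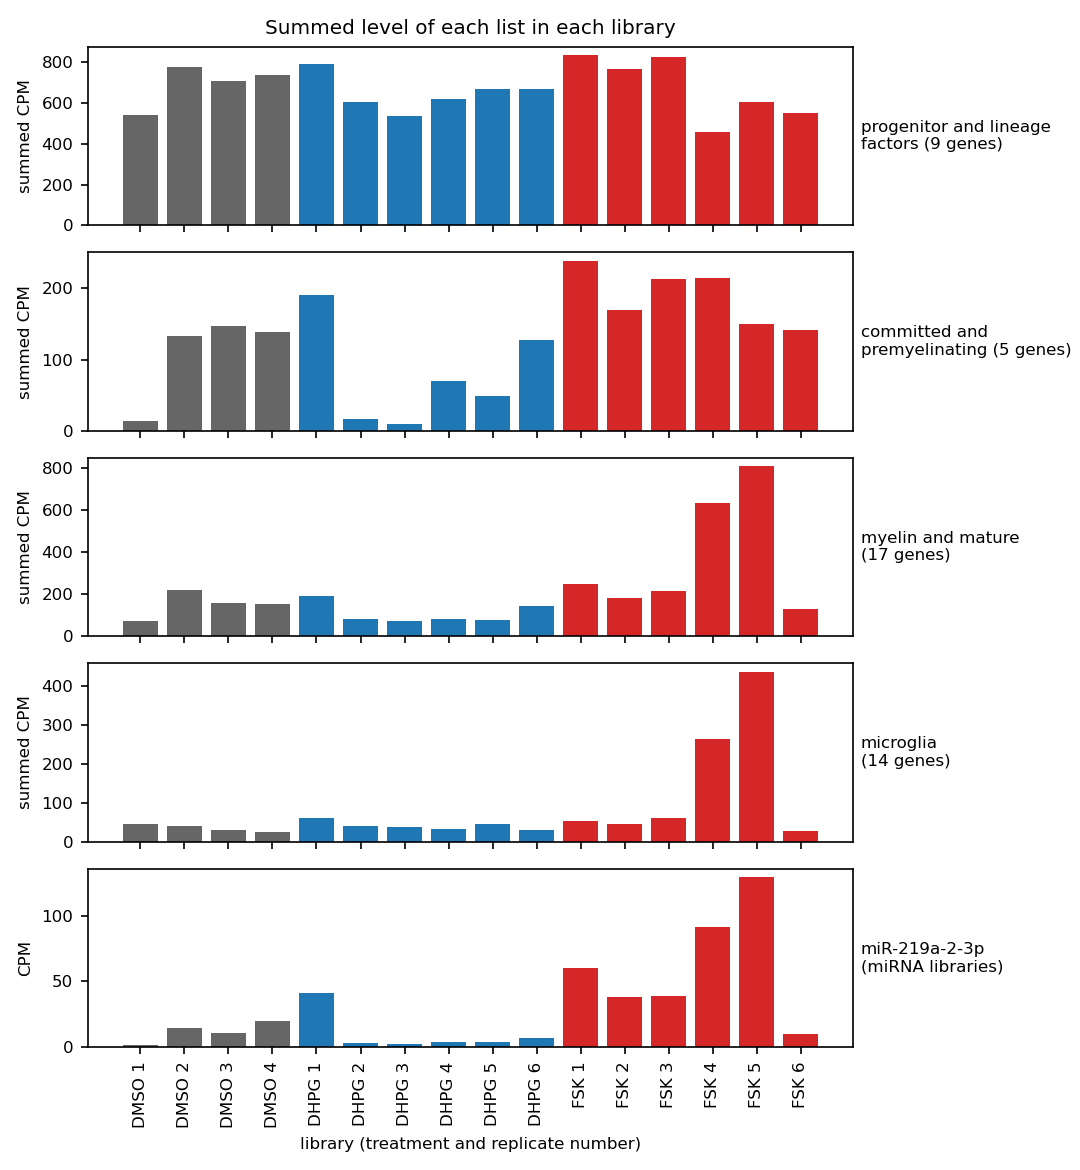
Summed CPM of each list (y axis, linear from 0) in each library (x axis), with the microglia markers and miR-219a-2-3p (CPM in the miRNA libraries of the same labels) underneath; grey bars are DMSO, blue DHPG and red FSK. The myelin and microglia sums both peak in FSK 4 and FSK 5, while the progenitor sum is lowest in FSK 4 at 458 CPM.

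**Figure D2:**
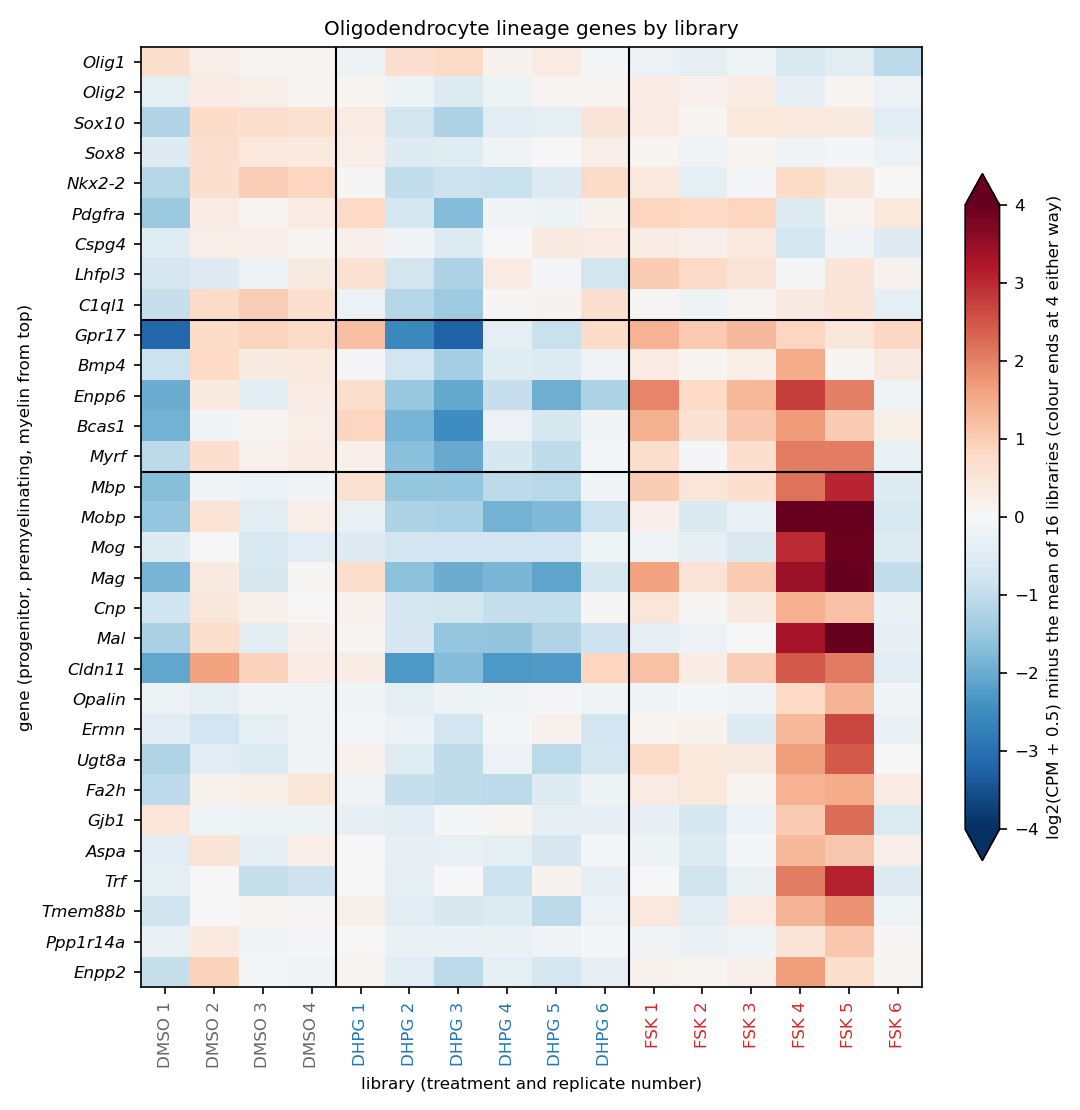
Level of each of the 31 genes (rows, lists separated by lines) in each of the 16 libraries (columns), as log2(CPM + 0.5) minus that gene's mean over the libraries (the colour scale ends at 4 in either direction). Premyelinating genes are blue in DMSO 1, DHPG 2 and DHPG 3, and myelin genes are red in FSK 4 and FSK 5.

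Forskolin against DMSO asks what a short rise of cAMP did to these transcripts. None of the 27 members that passed a filter on low counts was called by edgeR's quasi-likelihood test (Benjamini-Hochberg adjusted p under 0.05 over 17173 features), where 0.809% of all features were called. Without adjustment 12 of the 27 had p under 0.05, against 21.3% of all features, and the DESeq2 Wald test called 6 of the 27, against 7.73% of its features. The 2 smallest p-values belonged to Olig1, which was lower with FSK, and Ugt8a, which was higher. The median log2 fold change was -0.17 over the 9 progenitor genes (2 positive, 7 negative), 1.16 over the 5 premyelinating genes (all positive) and 1.89 over the 13 tested myelin genes (all positive), beside 0.02 over all features. Of the 13, Ermn and Aspa passed the filter mainly through FSK libraries, so a positive sign was favoured for them. Without FSK 4 and FSK 5 the 3 list medians were -0.28, 0.74 and 0.14, the myelin one over 11 genes. No member was then called of 25 tested (0.227% of features were). When the library set was a term of the fit, 5 of the 27 were called (Olig1, Mbp, Mobp, Mag and Ugt8a), beside 9.45% of features. The authors' deposited table calls 9 of the 29 members for which it gives an adjusted p (8 higher and 1 lower), beside 8% of all its features (4.85% higher and 3.15% lower).

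Olig1 and Olig2 encode the paired bHLH factors that specify the lineage, and their genes neighbour each other on chromosome 16, 41092 bases apart in RefSeq's annotation of GRCm38.p6. Olig1 stood at 303, 224, 201 and 202 CPM in DMSO 1 to 4 and at 89.7 to 164 CPM (median 139) in the 6 FSK libraries. Every FSK library lay below every DMSO library, a lack of overlap seen in the lower direction for 4.37% of all features. Among the 27 tested members, Olig1 was the 1 with this pattern. The fitted log2 fold change was -0.78 ± 0.20 (SE, adjusted p = 0.077), so Olig1 did not pass the test, and the DESeq2 Wald test gave the same value with an adjusted p of 0.012. Over leaving out each of the 16 libraries its value ranged from -0.84 to -0.63. It was -0.75 (adjusted p = 0.15) without FSK 4 and FSK 5, -0.89 (adjusted p = 0.0093) when the library set was a term of the fit, and -0.87 within the deep set. With both changes together, Olig1 was the 1 member of 25 that passed, at -1.05 (adjusted p = 0.025), beside 0.335% of features. The authors' deposited table gives -0.80 with an adjusted p of 0.00485.

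Olig2 overlapped between DMSO and FSK, and neither gene passed the main test. It stood at 52.8, 84.6, 79.0 and 72.3 CPM in DMSO 1 to 4 and at 53.5 to 83.5 CPM (median 74.3) in FSK, with a log2 fold change of -0.03 ± 0.16 (adjusted p = 0.94). The sequence before the annotated start of Olig2 is shown as that of the neighbour whose level did not separate the groups. It is 250 bases of chr16:91225300-91225549 (GRCm38.p6, plus strand, RefSeq), directly before the first exon, 5′ to 3′. Capitals mark its single match to ACAATG, read on the other strand as CATTGT, a form of the letters that HMG-box proteins of the SOX family bind:
Olig2: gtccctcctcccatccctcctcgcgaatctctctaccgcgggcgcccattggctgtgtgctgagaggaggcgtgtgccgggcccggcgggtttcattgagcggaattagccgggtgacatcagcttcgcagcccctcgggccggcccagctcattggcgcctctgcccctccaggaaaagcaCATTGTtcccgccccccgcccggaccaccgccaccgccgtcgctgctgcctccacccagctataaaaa

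The other lineage factors also overlapped between DMSO and FSK. Sox10 and Sox8, SOX-family factors of the lineage, had log2 fold changes of -0.17 ± 0.37 and -0.36 ± 0.20, and the homeodomain factor Nkx2-2 had -0.39 ± 0.55. All 3 were lowest in DMSO 1 among the controls: Sox10 was 4.95 CPM there and 18.8 to 20.5 CPM in DMSO 2 to 4. Among the surface and secreted molecules of progenitors, Pdgfra was 71.4, 252, 216 and 251 CPM in DMSO 1 to 4 and 141 to 364 CPM (median 307) in FSK, a log2 fold change of 0.51 ± 0.42 (adjusted p = 0.51). The proteoglycan gene Cspg4 (NG2) had -0.10 ± 0.22, the membrane protein gene Lhfpl3 0.73 ± 0.33 (adjusted p = 0.22) and the secreted C1q-like gene C1ql1 -0.44 ± 0.40. Within the deep libraries alone 8 of these 9 progenitor genes had a negative value, with a list median of -0.55. Within the shallow libraries, where DMSO 1 is the only control and is assumed to vary like the other groups, the median was 1.0. The sign of the progenitor list thus differed between the library sets, while Olig1 was lower in both.

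The committed and premyelinating genes differed most among the controls themselves. Gpr17, a G protein-coupled receptor of committed precursors, was 6.76 CPM in DMSO 1 and 105, 119 and 107 CPM in DMSO 2 to 4. In FSK it was 87.4 to 166 CPM (median 123), with a log2 fold change of 0.60 ± 0.74 (adjusted p = 0.68). FSK 1 to 3, at 131 to 166 CPM, were above every control, and FSK 4 to 6, at 87.4 to 115 CPM, were level with DMSO 2 to 4. Bcas1, which marks premyelinating cells, was 5.52, 20.1, 23.6 and 26.0 CPM in DMSO 1 to 4 and 25.3 to 71.9 CPM (median 45.5) in FSK. It was above every control in 5 of 6 FSK libraries, with a log2 fold change of 1.31 ± 0.56 (adjusted p = 0.19), and 1.12 (adjusted p = 0.32) without FSK 4 and FSK 5. Enpp6, a choline phosphodiesterase of newly forming oligodendrocytes, was 0.133, 2.75, 1.30 and 2.64 CPM in DMSO and 1.75 to 16.4 CPM (median 7.38) in FSK. Its log2 fold change was 2.16 ± 0.88 (adjusted p = 0.18), and again 5 of 6 FSK libraries were above every control. Enpp6 was highest in FSK 4 and FSK 5, at 16.4 and 9.61 CPM, against at most 9.03 CPM in the other 14 libraries. Over leaving out single libraries its value ranged from 1.79 to 2.50, and its value without both is not given here. Myrf, the membrane-bound factor that drives myelin genes, reached 7.87 and 7.83 CPM in FSK 4 and FSK 5 and at most 2.78 CPM in the other 14 libraries. Its log2 fold change of 1.16 ± 0.78 became 0.18 without those libraries. Bmp4, a secreted ligand of the TGF-beta family, had 0.32 ± 0.51.

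The myelin genes were highest in FSK 4 and FSK 5. In both libraries 16 of the 17 myelin genes, tested or not, were above all 14 other libraries, as were 2 of the 5 premyelinating genes (Enpp6 and Myrf) and none of the 9 progenitor genes. The same held for 18.9% of all features tested. The exception among the 17 was Enpp2, the secreted enzyme autotaxin, which choroid plexus also makes: it was 107 CPM in FSK 4 and 53.7 in FSK 5, against 63.7 in DMSO 2. Microglia markers moved with the myelin genes in these libraries (262 and 436 CPM summed, as above). Their part in the result was not tested. Choroid plexus and ependyma markers summed to 468 and 407 CPM in FSK 4 and FSK 5 and to 40.0 to 371 CPM elsewhere, and their part was not tested either.

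Mobp, a small basic protein of central myelin, shows the split most widely. It was 0.133, 2.19, 0.857 and 1.69 CPM in DMSO 1 to 4, 0.700 to 1.63 CPM in FSK 1, 2, 3 and 6, and 40.9 and 71.3 CPM in FSK 4 and FSK 5. Its log2 fold change was 3.96 ± 1.40 (adjusted p = 0.13) with all libraries and -0.29 (adjusted p = 0.85) without FSK 4 and FSK 5. Mog, a glycoprotein of the outermost myelin layer and a late marker of maturation, was held by 349 and 509 estimated counts in FSK 4 and FSK 5 and by at most 14 in any other library. In CPM these were 6.20 and 12.4, against 0 to 0.364 in the other 14, with 4 DHPG libraries at 0. Mog did not pass the filter and has no fitted value here.

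The sequences before these 2 genes are shown because their RNA separated FSK 4 and FSK 5 from the rest so far; they were chosen after their values were seen. Each is the 250 bases directly before the annotated gene start (RefSeq, GRCm38.p6), 5′ to 3′ on the gene's own strand: chr9:120149492-120149741 (plus) for Mobp and chr17:37023399-37023648 (minus) for Mog. Capitals mark matches to ACAAAG on either strand, here all read as CTTTGT:
Mobp: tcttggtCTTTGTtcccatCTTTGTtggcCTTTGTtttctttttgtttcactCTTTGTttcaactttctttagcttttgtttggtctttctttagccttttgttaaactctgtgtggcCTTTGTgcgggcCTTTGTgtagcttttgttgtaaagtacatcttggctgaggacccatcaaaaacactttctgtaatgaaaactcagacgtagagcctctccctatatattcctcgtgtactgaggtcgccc
Mog: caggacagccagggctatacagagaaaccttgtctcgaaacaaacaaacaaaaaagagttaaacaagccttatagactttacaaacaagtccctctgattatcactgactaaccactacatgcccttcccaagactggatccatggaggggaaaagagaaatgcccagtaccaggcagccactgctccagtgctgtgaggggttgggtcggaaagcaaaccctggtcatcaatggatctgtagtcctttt

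The Mobp window holds 6 such matches, and it is the 1 window of 32851 in the RefSeq table with that many. The Mog window holds no match to ACAAAG. It also lacks ACAATG, as well as the E-box, a pattern of bHLH factors spelled CAGCTG. Windows were found for 21 of the 31 members. Either SOX-type pattern (ACAAAG or ACAATG, both strands, searched apart, so matches may overlap) was found for 7 of 13 myelin, 1 of 2 premyelinating and 1 of 6 progenitor genes. It was in 25.2% of all 32851 windows. Members were counted by gene, with a match in any window of the gene, so these shares are in unlike units. CAGCTG was found for 2 of the 21 genes and in 13% of all windows. A match is a description of the letters and shows no binding, and windows without one say nothing of the factor.

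Mag, an adhesion molecule on the inner face of the sheath, and Mbp, which packs the myelin membranes, also stood above the controls in FSK 1 to 3, though neither passed the test. Mbp was 12, 36.9, 33.8 and 37.3 CPM in DMSO 1 to 4, 56.0 to 82.1 CPM in FSK 1 to 3, 182 and 337 CPM in FSK 4 and FSK 5, and 28.0 CPM in FSK 6. Its log2 fold change was 2.06 ± 0.66 (adjusted p = 0.11), and 0.93 (adjusted p = 0.31) without FSK 4 and FSK 5. Mag was 0.530, 4.28, 1.93 and 3.37 CPM in DMSO and 1.38 to 60.3 CPM (median 9.11) in FSK, with 3.03 ± 1.03 (adjusted p = 0.12) and, without those libraries, 1.26 (adjusted p = 0.40). For both genes 5 of 6 FSK libraries were above every DMSO library and FSK 6 was not. FSK 6 was not above all controls in 25 of the 27 tested members, and in 77.7% of all features.

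Among the enzymes of myelin lipids, Ugt8a makes galactosylceramide and Fa2h hydroxylates its fatty acids. Ugt8a was 1.90, 3.67, 3.26 and 4.49 CPM in DMSO 1 to 4 and 8.81, 6.89, 6.53, 17, 30.1 and 5.00 CPM in FSK 1 to 6. It was the 1 member above every control in all 6 FSK libraries, which 3.62% of all features were. Its log2 fold change was 1.89 ± 0.48 (adjusted p = 0.074), 1.02 (adjusted p = 0.15) without FSK 4 and FSK 5, and 2.04 (adjusted p = 0.018) with the library set term. Fa2h had 1.04 ± 0.61, or 0.34 without FSK 4 and FSK 5. The wider set of 20 myelin lipid and cholesterol synthesis genes had a median of -0.10 and no gene called, the smallest p belonging to Elovl7 (1.23 ± 0.37, adjusted p = 0.096).

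The remaining myelin genes were likewise high in FSK 4 and FSK 5. Log2 fold changes were 0.62 ± 0.34 for Cnp, an enzyme of the cytoplasmic channels of myelin, 2.81 ± 1.14 for the raft protein gene Mal, 0.74 ± 0.85 for the tight junction gene Cldn11, 2.13 ± 0.76 for the iron carrier gene Trf, 1.22 ± 0.55 for Tmem88b and 0.52 ± 0.36 for Enpp2. None passed the test, and without FSK 4 and FSK 5 these 6 values lay between -0.31 (Mal) and 0.28 (Tmem88b). Ermn, a cytoskeletal protein gene (3.13 ± 1.17), and Aspa, which encodes the enzyme that splits N-acetylaspartate (0.80 ± 0.67), passed the filter mainly through FSK libraries, 4 of 5 and 3 of 5 of the libraries above the filter's limit of 0.402 CPM. Opalin, the gap junction gene Gjb1 and Ppp1r14a did not pass it. They reached 0.604 and 1.14, 1.12 and 3.28, and 0.356 and 0.753 CPM in FSK 4 and FSK 5.

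**Figure D3:**
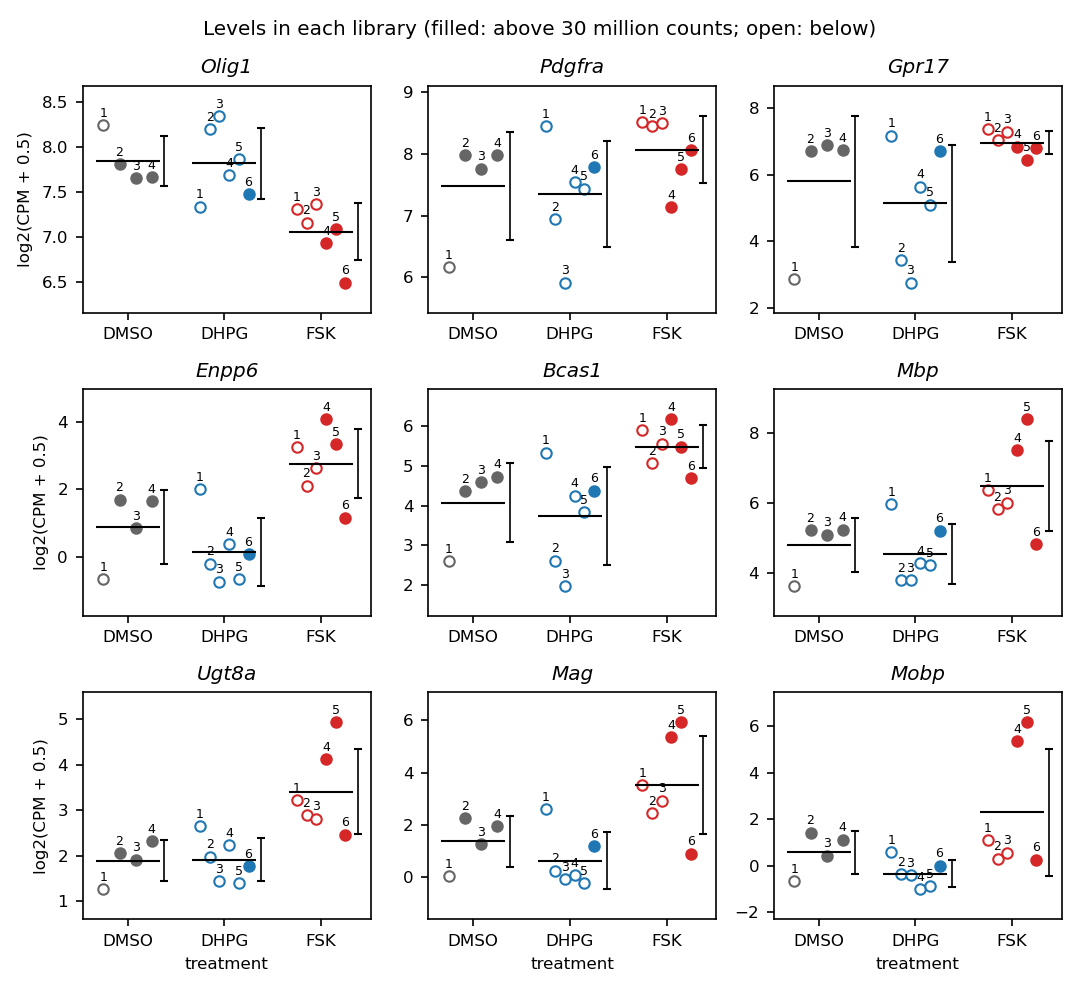
Level of 9 members in each library as log2(CPM + 0.5) (y axis) by treatment (x axis); filled points are libraries above 30000000 counts, open points those below, numbers are replicates, lines are group means and bars 1 SD. Olig1 is lower in all 6 FSK libraries than in any DMSO library, as 4.37% of all features were, and did not pass the main test. Mobp is high only in FSK 4 (40.9 CPM) and FSK 5 (71.3 CPM).

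DHPG against DMSO shares its 4 control libraries with the comparison above. No member of 27 was called, beside 0.00582% of all features; 1 member, Bmp4, had an unadjusted p under 0.05, against 12.4% of all features, and the DESeq2 Wald test also called none (0.0408% of features). The authors' deposited table calls none of the 25 members for which it gives an adjusted p, beside 1.48% of its features. Bmp4 was 0.358, 2.18, 1.49 and 1.54 CPM in DMSO and 0.101 to 0.991 CPM (median 0.593) in DHPG, a log2 fold change of -1.19 ± 0.52 (adjusted p = 0.40). The list medians were -0.19 (progenitor), -0.92 (premyelinating) and -0.53 (myelin), beside -0.01 over all features. No member separated the groups in either direction, as 0.646% of features did upward and 0.67% downward. With the library set term the myelin median was 0.62, and within the shallow set, against DMSO 1 alone, the 3 medians were 0.59, 1.57 and 1.0. The sign of each list thus differed between these fits.

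The DHPG libraries differed widely among themselves. Gpr17 was 145, 10.3, 6.24, 49.7, 33.8 and 105 CPM in DHPG 1 to 6. Pdgfra was 349, 123, 59.7, 186, 173 and 221 CPM, and Mag 5.65, 0.692, 0.453, 0.553, 0.363 and 1.78 CPM. DHPG 1 was the highest DHPG library for 18 of the 27 tested members, including 3 of 9 progenitor genes, all 5 premyelinating genes and 10 of 13 myelin genes, against 15.5% of all features. Its values for Gpr17 (145 CPM), Pdgfra (349) and Bcas1 (40.0) lay within or next to those of FSK 1 to 3 (131 to 166, 349 to 364 and 33.2 to 59.3 CPM). DMSO 1 was likewise the lowest DMSO library for 24 of the 27, against 38.3% of all features. Other progenitor genes were highest elsewhere: Sox10 was 17.5 CPM in DHPG 6 and 15.4 in DHPG 1. Within DHPG the premyelinating genes were thus high in DHPG 1, and Gpr17 and Pdgfra low in DHPG 2 and DHPG 3. Olig1 ran the other way, at 161 CPM in DHPG 1 and 293 and 324 CPM in DHPG 2 and DHPG 3.

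Forskolin against DHPG compares the 2 agents directly and shares libraries with both comparisons above. The test called 16 of the 27 members, 15 higher with FSK and 1 lower, where it called 30.8% of all features (16.3% higher and 14.4% lower). The single lower member was Olig1 (log2 fold change -0.78 ± 0.19, adjusted p = 0.017), which was called also when any 1 of the 16 libraries was left out, at -0.87 to -0.66. Of the premyelinating genes 4 of 5 were higher with FSK than with DHPG. These were Enpp6 at 3.08 ± 0.80, Myrf at 2.31 ± 0.72, Bmp4 at 1.51 ± 0.48 and Bcas1 at 1.46 ± 0.49 (adjusted p 0.018 to 0.035). Gpr17 did not pass (1.13 ± 0.66, adjusted p = 0.19). Of the 13 tested myelin genes 11 were higher, from Enpp2 at 1.05 ± 0.33 to Mobp at 5.75 ± 1.34. Between them were Mal at 4.17 ± 1.06, Mag at 3.71 ± 0.91, Fa2h at 2.33 ± 0.58, Mbp at 2.20 ± 0.57 and Cldn11 at 2.13 ± 0.78. Ugt8a was at 1.85 ± 0.42, Trf at 1.78 ± 0.65, Tmem88b at 1.62 ± 0.49 and Cnp at 1.11 ± 0.30. A higher value here can reflect a high FSK or a low DHPG level. Against DMSO, Bmp4 was 0.32 with FSK and -1.19 with DHPG, Fa2h 1.04 and -1.29, and Mbp 2.06 and -0.14. Ermn (2.57 ± 0.99) and Aspa (1.68 ± 0.63) did not pass. The other 8 progenitor genes had values of -0.11 to 0.70 and did not pass. The medians were 0.28, 1.51 and 2.13 for the 3 lists, beside 0.03 over all features.

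The 16 calls were lost without FSK 4 and FSK 5, while the list medians stayed positive. Without both, none of 25 tested members was called and 3 features were called in all (0.0179%). The list medians were then 0.24, 1.28 and 1.05, the myelin one over 11 genes where it was over 13 with all libraries. Olig1 was then at -0.74 (adjusted p = 0.091). With the library set term added as well, 3 members were called, Olig1 (-0.72, adjusted p = 0.042), Ugt8a (0.98, adjusted p = 0.048) and Fa2h (1.68, adjusted p = 0.049), beside 9.27% of features. With the term and all libraries, 8 of 27 were called, beside 23.3% of features. Within the deep libraries alone no member and no feature was called (0%), and within the shallow ones no member was, beside 0.0506% of features. In the deep set DHPG 6 is the 1 DHPG library, and its spread is assumed to be that of the other groups. The value of Trf turned from 1.78 to -0.22 without FSK 4 and FSK 5. Leaving out 1 library lowered the count to 8 without DHPG 3 or FSK 5 and to 9 without DHPG 2, DHPG 5 or FSK 4. The groups did not overlap for 3 members, all higher with FSK (3.23% of features were): Bmp4, Fa2h and Enpp2. None was lower without overlap, as 4.02% of features were. Fa2h was 0.0851 to 0.614 CPM in DHPG and 0.807 to 2.89 CPM in FSK.

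**Figure D4:**
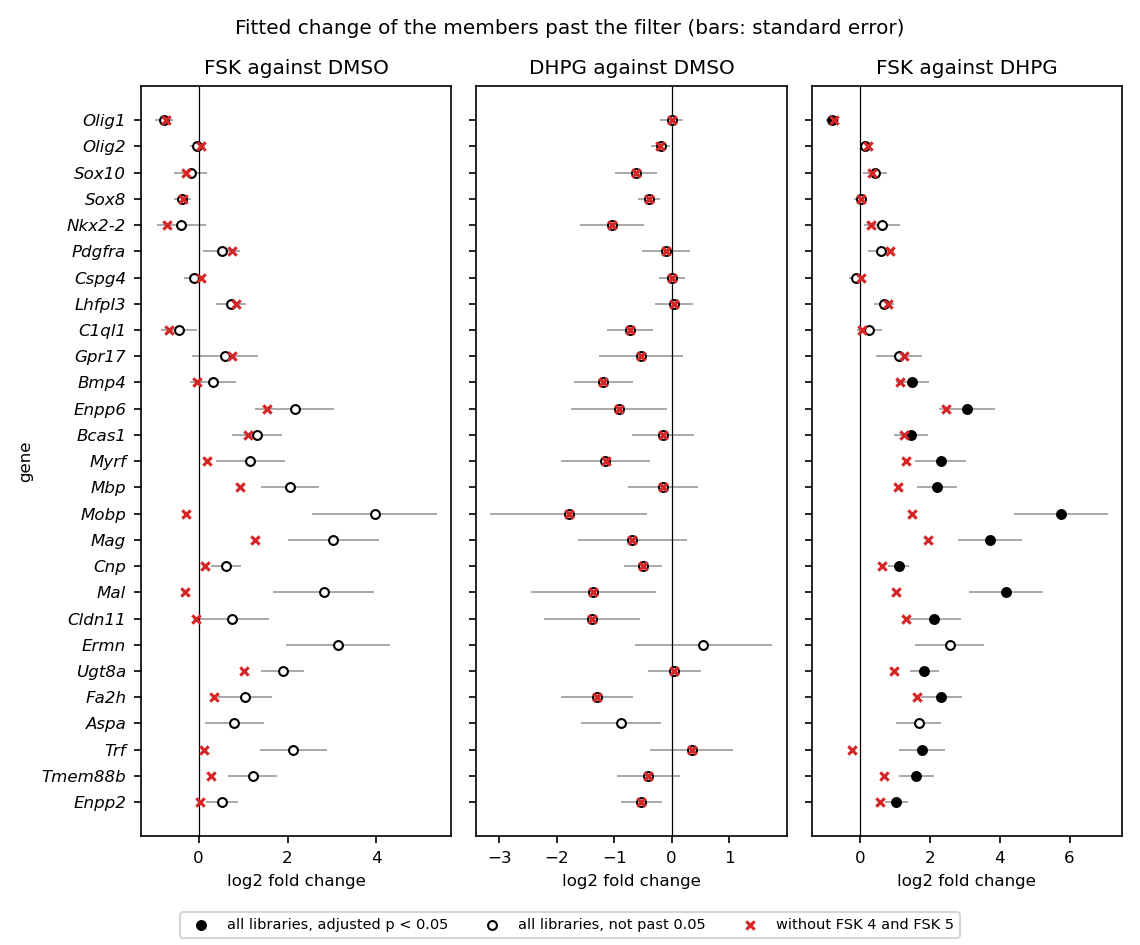
Fitted log2 fold change (x axis) with its standard error for each of the 27 tested members (y axis) in the 3 comparisons; filled circles passed an adjusted p of 0.05, open circles did not, and red crosses are the values without FSK 4 and FSK 5, where 25 could be tested. Crosses of the myelin genes lie left of the circles in both FSK comparisons, and those of Olig1 lie on them.

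A further 35 genes known from this lineage, none of them a member, were listed; 34 were in the table and 30 passed the filter. With FSK against DMSO none was called, and the median was 0.18. Gjc3, a connexin gene, had a log2 fold change of 1.75 ± 0.68 (adjusted p = 0.16). With DHPG against DMSO none was called, the median was -0.30, and the smallest p belonged to Kif19a (-2.04, adjusted p = 0.40). With FSK against DHPG 11 of 30 were higher and 2 lower (36.7% and 6.67%), beside 16.3% and 14.4% of all features. Without FSK 4 and FSK 5 none of the 30 was called, and their median went from 0.77 to 0.58. Among those higher with all libraries were Sox6 (0.90 ± 0.23), Plekhb1 (1.35 ± 0.38) and Tspan2 (1.27 ± 0.39). Of the 20 lipid and cholesterol synthesis genes 9 were lower (45%, beside 14.4% of all features) and 1 higher with FSK than with DHPG, a median of -0.28. Among the lower genes was Sqle, a sterol enzyme gene (-0.68 ± 0.16), and the higher gene was Elovl7, a fatty acid elongase (1.12 ± 0.32). Without FSK 4 and FSK 5 none of the 20 was called and the median was -0.14. With the library set term as well, 3 of the 20 were called lower (15%, beside 4.48% of features), and the median was -0.09. Their summed level was 4994 and 4893 CPM in FSK 4 and FSK 5 and 6055 to 6778 CPM in the other 14 libraries, so these libraries were low here where they were high for myelin genes. None of the 20 was called with DHPG against DMSO (median 0.16).

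Markers of other cells were also called in that comparison, where 16.3% of all features were higher and 14.4% lower. Without FSK 4 and FSK 5 none of the markers below was called with FSK against DHPG, beside 0.0179% of features, and the microglia median was 0.38. With the library set term as well, 1 of 10 astrocyte and 2 of 6 cycling-cell markers were higher. Of 10 inhibitory neuron markers 1 was then higher and 1 lower, beside 4.79% and 4.48% of features. With FSK against DHPG 9 of 14 microglia markers were higher (median 2.56), and Fcrls, Cx3cr1, Ctss and C1qb had the smallest p. Of 10 astrocyte markers 5 were higher, led by Aqp4 at 1.97 ± 0.37. Of 10 excitatory neuron markers 2, Neurod2 and Slc17a7, were lower. Gad2 and Pvalb were higher and Slc32a1 lower among 10 inhibitory neuron markers. Ccdc153 and Foxj1 of ependyma, Slco1a4 of endothelium and Cdh19 of the Schwann cell list were higher. No fibroblast, mural or meningeal marker was called. With DHPG against DMSO no marker on any of these lists was called. One astrocyte marker, S100b, is also on the list of further oligodendrocyte genes. With FSK against DMSO, none of the markers of microglia (median 2.98), astrocytes (-0.01), excitatory neurons (-0.53), inhibitory neurons (-0.32), choroid plexus and ependyma (-0.10), fibroblast, mural and meningeal cells (-0.16), endothelium (-0.22) or cycling cells (0.84) was called. Of the 4 tested Schwann cell genes 1 was called, Egr2 (1.81 ± 0.27, adjusted p = 0.0072), which neurons also switch on as an immediate-early gene. Without FSK 4 and FSK 5, 1 of 3 tested Schwann cell genes was called higher with FSK against DMSO, beside 0.155% of features. How far these cells moved the members was not tested.

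The miRNA libraries carry a second readout of the lineage. miR-219a and miR-338 are known to promote oligodendrocyte maturation. Of 4 arms looked up, 3 had a mature sequence in RefSeq (GRCm38.p6), and the 2 known for this role are shown 5′ to 3′ with the seed, bases 2 to 8, in capitals; their seeds differ:
miR-219a-5p: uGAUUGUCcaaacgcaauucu
miR-338-3p: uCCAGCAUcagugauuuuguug

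miR-219a-5p was low in all libraries, at 3.86 to 9.01 CPM in DMSO, 1.04 to 5.12 in DHPG and 3.29 to 13.5 in FSK. miR-338-3p was 179 ± 19.1 CPM in DMSO (SD, n = 4), 161 ± 24.6 in DHPG (n = 6) and 199 ± 41.7 in FSK (n = 6). miR-219a-2-3p had the wide spread of the premyelinating and myelin mRNAs. It was 1.41, 14.7, 10.6 and 19.9 CPM in DMSO 1 to 4, and 41.0 CPM in DHPG 1 but 2.08 to 6.69 CPM in DHPG 2 to 6. In FSK 1 to 6 it was 60.0, 38.1, 39.1, 91.8, 129 and 9.83 CPM. For this 1 arm of the 4, the same labels, DMSO 1 low, DHPG 1 high and FSK 4 and FSK 5 highest, recurred in a separate assay. FSK 6 again lay with the controls. The other arms did not share the whole pattern. miR-219a-5p was lowest in DMSO 1 among controls and highest in FSK 4 and FSK 5, but was 3.64 CPM in DHPG 1 and 5.12 in DHPG 5. miR-338-3p was highest in FSK 6 (266 CPM). miR-338-5p was 48.6 CPM in DMSO 1 and 38.0 in DMSO 2. The authors' deposited table gives miR-219a-2-3p a log2 fold change of 2.37 with FSK and an adjusted p of 0.095, beside 0.072% of its miRNAs called. Whether total RNA and miRNA libraries of 1 number come from 1 sample is not stated in the labels.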

How the data were processed

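Per the labels' protocols, RNA was extracted with Trizol and chloroform and total RNA libraries were made with a stranded Illumina kit. Salmon with the GRCm38 build gave the abundances and DESeq the comparisons, per the submitters' processing notes (versions not given in the sources used here). The deposited values are estimated counts per gene; 26.6% of the total RNA values were not whole, and they were rounded before every test. The authors' deposited tables also give log2 fold changes and adjusted p-values, quoted only where named. Control columns were matched to DMSO samples by number.

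The main test was edgeR 4.0.16's quasi-likelihood F test in R 4.3.3, with TMM scaling, filterByExpr at a minimum count of 10, all 16 total RNA libraries in 1 fit and Benjamini-Hochberg adjustment over all features tested. Levels are CPM scaled by TMM; plots add 0.5 before log2. Alternatives included DESeq2 1.42.0, other scalings, no filter, a term for library sets divided at 30000000 counts, each set alone, a replicate block, and libraries left out. All 31 members were named; of other lists, up to 4 called genes or the 2 of smallest p. Some genes of these lists are not reported here. Members and lists were chosen with earlier results of these data known. Deviations of same-numbered samples were correlated at -0.41 to 0.39, and numbers were not used to pair them in the main test. Whether same-numbered samples share a culture is not known.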

Additional observations from a re-analysis of the deposited data

Results flagged for a closer look

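In each group of 4 or 6 libraries the gap of the most extreme library was set against the group's range (Dixon's test at the 95% level). Chance flags about 1 in 20 groups of normal values, or 5.7 of the 114 tested over members, list sums and miRNAs. Levels near 0 are not normal, so this rate is approximate. Of the 114 groups, 14 stood out. DMSO 1 was far from the other controls in 6: Sox10 (4.95 CPM), Gpr17 (6.76 CPM), Mbp (12 CPM), Tmem88b (0.406 CPM) and the premyelinating sum (13.3 CPM) were low there, and Gjb1 (0.619 CPM) was high. DHPG 1 was far above the other DHPG libraries for Enpp6 (3.51 CPM), Mag (5.65 CPM) and miR-219a-2-3p (41.0 CPM). Mog was highest among DHPG libraries in DHPG 6, at 0.254 CPM from 10 estimated counts. In FSK 4, Bmp4 (3.83 CPM) and Enpp2 (107 CPM) stood above the other FSK libraries, and in FSK 5 Ermn (5.00 CPM) and Gjb1 (3.28 CPM) did. The test looks at 1 library at a time, so 2 high libraries of a group can hide each other. Mobp, at 40.9 and 71.3 CPM in FSK 4 and FSK 5, was not flagged.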

How the results depend on the processing

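The counts of called members and features and the list medians were recomputed under each alternative, and the counts that moved by over 1.5 times and the medians that moved by over 1 SD between replicates (0.42, 1.26 and 1.36 for the progenitor, premyelinating and myelin lists) or over 1.5 times are given here; the cause was not tested. FSK against DMSO called 139 features and 0 members. The count of features was 62 with library totals, 1276 with DESeq2 (6 members), 66 with no filter, 1622 with the library set term (5 members: Olig1, Mbp, Mobp, Mag and Ugt8a, beside 9.45% of features), 11 in the shallow set, 38 without FSK 4 and FSK 5, 56 with the set term as well (1 member), and 12 to 427 over leaving out 1 library, with 0 members each time; it moved by over 1.5 times for each DMSO library, DHPG 1, 2, 5 and 6, and FSK 1, 2, 4 and 5. In the shallow set the list medians moved to 1.0, 3.07 and 1.96. The progenitor median of -0.17 was -0.09 with library totals, -0.03 with the set term, -0.55 in the deep set, -0.28 without FSK 4 and FSK 5 and 0.13 with the set term as well; the premyelinating one was 0.74 without FSK 4 and FSK 5. The myelin median of 1.89 was 0.14 without FSK 4 and FSK 5 and 0.51 with the set term as well, both over 11 genes. Over single libraries left out it was 1.21 to 2.05, the progenitor median -0.47 to -0.02 and the premyelinating one 0.85 to 1.36. DHPG against DMSO called 1 feature, 7 with DESeq2, 0 with the set term, in either set alone or without FSK 4 and FSK 5 (with or without the set term), and 0 to 5 over single libraries; members stayed at 0. Its list medians of -0.19, -0.92 and -0.53 were 0.59, 1.57 and 1.0 in the shallow set and -0.12, -0.57 and -0.26 without FSK 4 and FSK 5 with the set term; the progenitor one was -0.09 with library totals, the premyelinating one -0.25 with the set term and -0.61 in the deep set, and the myelin one 0.62 with the set term. They were -0.38 to -0.09, -1.38 to -0.57 and -0.75 to -0.31 over single libraries. FSK against DHPG called 5283 features and 16 members. These were 2510 features with library totals, 2905 with no filter, 0 in the deep set, 9 in the shallow set, 3 without FSK 4 and FSK 5, 1551 with the set term as well and 1804 to 5798 over single libraries (3031 without DHPG 2, 1924 without DHPG 3, 2380 without DHPG 5, 2575 without FSK 4 and 1804 without FSK 5). Members were 8 with the set term, 0 in each set alone and without FSK 4 and FSK 5, 3 with the set term as well, and 8 to 18 over single libraries. The progenitor median of 0.28 was 0.16 with the set term and -0.40 in the deep set. The myelin one of 2.13 was 1.05 in the shallow set. Without FSK 4 and FSK 5 it was 1.05, and 1.03 with the set term as well, both over 11 genes. Over single libraries the 3 medians were 0.11 to 0.54, 1.30 to 1.92 and 1.42 to 2.41. Trf reversed to -0.19 in the shallow set, -0.22 without FSK 4 and FSK 5 and -0.20 with the set term as well.

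Over 14 same-numbered pairs the correlation of deviations was -0.41 to 0.39, 3 were above 0.1, and 1 of 16 libraries correlated best with its own number. Deviations also differed with the library set, with DMSO 1 at -0.70 with DHPG 6 (deep) and 0.54 with FSK 2 (shallow). This check therefore cannot tell whether same-numbered samples share a culture. With the replicate block the FSK against DMSO medians were 0.63 (premyelinating) and 1.19 (myelin). With it 531 features and 0 members were called for FSK against DMSO, 0 and 0 for DHPG against DMSO, and 4172 and 4 (Olig1, Enpp6, Ugt8a and Fa2h) for FSK against DHPG.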

Other observations

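Cycling-cell markers, which dividing progenitors share with other proliferating cells, summed to 61.7 to 136 CPM over 6 genes in DMSO, 55.3 to 168 in DHPG and 79.6 to 207 in FSK. Among DMSO libraries they were highest in DMSO 1 (136 CPM), the only shallow control, where Gpr17 and Bcas1 were lowest. Over the shallow libraries the sum ran from 103 CPM (DHPG 3) to 205 CPM (FSK 1). In the deep set it was 55.3 to 80.9 CPM in DMSO 2 to 4, DHPG 6 and FSK 6, 134 in FSK 4 and 207 in FSK 5. Library set and lineage cannot be told apart here. None of the 6 was called in any of the 3 comparisons with all libraries. Without FSK 4 and FSK 5 and with the library set term, 2 of the 6 were called higher with FSK against DHPG (33.3%, beside 4.79% of features). The smallest p with FSK against DMSO belonged to Top2a, a topoisomerase of dividing cells (log2 fold change 1.02, adjusted p = 0.091).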
